A study of Mus musculus with 2 samples.

Results

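Late axon-bearing ganglion cells were the 2614 cells, of 22987 in 2 eyecup libraries, that carried a ganglion cell transcription factor together with axon genes. Members were chosen by their measured UMI counts. A cell was a member when it held at least 2 UMIs of *Isl1* and *Pou4f2* together, at least 4 UMIs of *Nefl*, *Nefm* and *Sncg* together, and fewer than 3 UMIs of *Eomes*, *Lhx9*, *Tbr1* and *Rspo3* together. A UMI is a molecular tag that lets 1 captured transcript be counted once. The quality limits applied first left 17458 cells. They asked for over 200 and under 6000 detected genes, mitochondrial transcripts from 1% to 20% of UMIs, hemoglobin transcripts under 20%, and *Cryaa* and *Cryab* under 1%. The members were 965 control cells and 1649 DKO cells.

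The study asked which cell states depend jointly on Six3 and Six6, a pair of homeodomain factors of the eye field. Droplet single-cell RNA-seq was run on E13.5 mouse eyecups, meaning neural retina with the lens, from 1 control and 1 DKO library, so no difference between genotypes has a replicate check and no p-value is given. The control was *Six3*+/- *Six6*+/-, from an embryo without GFP fluorescence and with normal eyecups. The DKO was *Six3*F/F *Six6*-/- *α-Cre*, from an embryo recognised by GFP-positive rosettes. The *α-Cre* transgene acts in the peripheral retina and not in its centre, so the DKO eyecups also held cells that kept *Six3*. The control lacked 1 functional copy of both genes and was not wild type. Genotype, embryo and library cannot be told apart here.

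Retinal ganglion cells are the output neurons of the eye and the first neurons born in the retina. *Atoh7* comes on in progenitors that can still divide and opens the ganglion cell program, *Isl1* and *Pou4f2* carry it forward in the neuron, and the neuron grows an axon across the inner retina toward the optic disc. Neurofilaments (*Nefl*, *Nefm*) and γ-synuclein (*Sncg*) accumulate in the growing axon, while growth cone proteins, adhesion molecules and guidance receptors steer it.

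The rule itself used *Isl1*, *Pou4f2*, *Nefl*, *Nefm* and *Sncg*, so their levels only describe the members. Levels are given as counts per 1000000 UMIs of the group (CPM), with exact 95% Poisson intervals for counting error alone. *Nefm* stood at 2879 CPM in control members and 3800 CPM in DKO members, *Nefl* at 1651 and 2839 CPM, and *Sncg* at 1563 and 2035 CPM. *Nefl* and *Nefm* lie on opposite strands of chromosome 14 and overlap in the annotation. *Isl1* stood at 977 and 939.9 CPM and *Pou4f2* at 234 and 142 CPM. *Gap43*, a growth cone phosphoprotein that the rule did not use, reached 2850 CPM in control and 3860 CPM in DKO members, against 442 and 882 CPM over all kept cells. *Stmn2*, a microtubule regulator of growing axons, reached 4007 and 4382 CPM against 701 and 1301 CPM. *Pou4f1* and *Rbpms*, ganglion cell markers outside the rule, were likewise higher in members (144 and 157 CPM, 131 and 259 CPM) than over all kept cells (24.0 and 38.2 CPM, 38.7 and 67.7 CPM). *Thy1*, a marker of mature ganglion cells, had 0 UMIs in the members of both libraries, which allows up to 0.412 CPM in control and 0.284 CPM in DKO. Apart from *Thy1*, the markers outside the rule named here were thus present at raised levels in both libraries. Of 13 ganglion cell markers, rule genes included, 6 outside the rule reached 20 CPM in the members of either library. The rule genes among the 13 could not enter this count. *Thy1* was not the only marker outside the rule that stayed under 20 CPM.

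The limits cut through a continuous range. Exactly 4 UMIs of the axon genes were held by 29 control and 27 DKO members, and exactly 3 UMIs, just outside, by 41 and 40 cells. At the *Isl1* and *Pou4f2* limit, 27 control and 110 DKO members held exactly 2 UMIs, and 19 and 117 cells just outside held 1. The fourth group of genes separated the libraries differently, with 2 control and 18 DKO members at 2 UMIs and 0 and 12 cells at 3 UMIs.

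Members were among the deeper cells. They had medians of 8811 UMIs and 3146 genes in control and 7402 UMIs and 2868 genes in DKO. Doublet calls covered 8.70% of control and 7.10% of DKO members, compared with 3.00% and 3.14% of all kept cells. The libraries shared 22 cell barcodes, of which 1 was a member in both. Transcripts of other cell types differed between the members of the libraries. The 8 red blood cell genes summed to 1616 CPM in control and 601 CPM in DKO members, the 8 lens genes to 170.5 and 72.9 CPM, the 6 pigment cell genes to 8.15 and 27.0 CPM, and the 6 macrophage genes to 6.93 and 8.93 CPM. All of these genes had UMIs in the members of both libraries except *Birc7*, a lens gene with 1 UMI in control and 0 in DKO. Their part in the gene differences below was not tested.

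Members made up 13.2% of the kept control cells (95% exact binomial interval 12.4 to 14.0%) and 16.3% of the kept DKO cells (15.6 to 17.0%). These intervals cover counting error only, and cells are not replicates. As *Isl1* and *Pou4f2* are genes of the rule, their shares only describe the members. *Isl1* without a *Pou4f2* UMI was seen in 24.7% of control members and 39.8% of DKO members, and both factors in 75.03% and 59.3%. Neither these shares nor the next were taken at equal depth. DKO members were shallower, with a median of 7402 UMIs against 8811 in control, and the part of depth was not tested. Counting only members with a *Pou4f2* UMI, a definition added after the data were seen, the shares were 9.92% and 9.80% of kept cells. By contrast, *Isl1* or *Pou4f2* cells under the axon gene limit were 8.51% of kept control cells (7.88 to 9.17%) and 4.32% of kept DKO cells (3.93 to 4.73%).

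Axon gene content was higher in DKO members. *Nefl*, *Nefm* and *Sncg* together had a median of 59.1 UMIs per 10000 in control members (quartiles 30.2 and 85.0) and 92.2 in DKO members (51.7 and 123). Members were therefore split into 3 bands of this rate, at 54.6 and 99.5 UMIs per 10000, to compare cells of more similar axon gene content. Band 3 has no upper limit. Its control rates ended between 190 and 200 and its DKO rates between 270 and 280, so a difference in rate remained within it. Control members fell into bands 1, 2 and 3 as 438, 381 and 146 cells, and DKO members as 433, 490 and 726 cells. Band 3 thus held 15.1% of control members (12.9 to 17.5%) and 44.0% of DKO members (41.6 to 46.5%), while band 1 held 45.4% and 26.3%. Since the bands rest on genes of the rule, the split between them is a description, and for any other gene a pooled difference mixes a difference at a given rate with this shift along it.

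**Figure D1:**
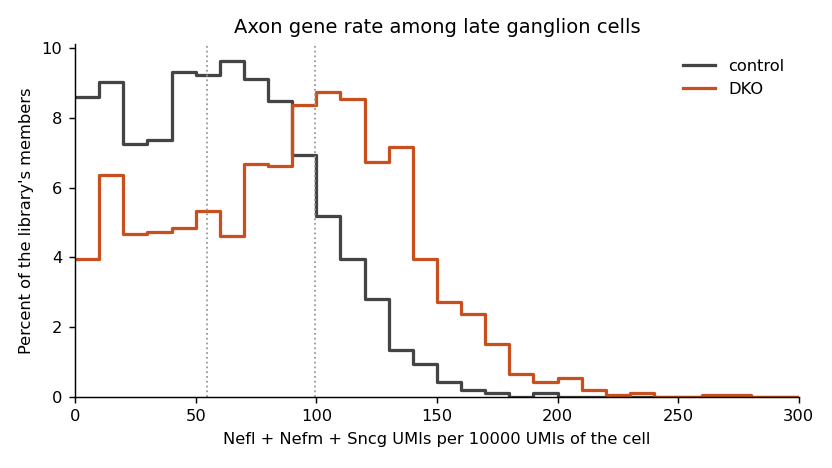
Share of the members of each library (vertical axis, percent) by axon gene rate (horizontal axis, *Nefl*, *Nefm* and *Sncg* UMIs per 10000 UMIs of the cell, in steps of 10). Dotted lines mark the band limits at 54.6 and 99.5, and the DKO line lies above the control line over most of the range beyond 99.5, where 44.0% of DKO and 15.1% of control members lie.

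*Six6* (mm10, chromosome 12, 72939892 to 72944899, plus strand) and *Six3* (chromosome 17, 85613608 to 85629302, plus strand) are the targeted genes. *Six6* stood at 162 CPM in control members (154 to 171) and 47.2 CPM in DKO members (43.5 to 51.1), a log2 ratio of -1.78 (-1.92 to -1.64). It was lower in every band, with log2 ratios of -1.56, -1.70 and -1.89. *Six3* did not show a like deficit. Its level was 714 CPM in control members (696 to 731) and 777 CPM in DKO members (762 to 792), and its log2 ratio went from -0.27 (-0.35 to -0.19) in band 1 to 0.09 in band 2 and 0.28 (0.18 to 0.38) in band 3. *Six3* was also higher in members than over all kept cells, which stood at 357 CPM in control and 339 CPM in DKO. Cre takes out the first exon of the floxed *Six3* allele, away from the 3′ end where tags are counted. The paper reports that *Six3* read coverage in mutant retinas was nevertheless reduced at the 3′ end. It delineated *Six3*-deficient DKO cells by low *Six3* mRNA and also called DKO cells Cre-positive from counts of reads mapped to the Cre vector. Its differential genes came from Cre-positive DKO cells against control cells. Cre counts were not used here, so the DKO members are not limited to Cre-positive cells. The control had 1 functional *Six3* copy, while DKO cells without Cre activity kept 2. The pooled levels therefore do not show how many DKO members had lost *Six3*, which was not tested here.

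Across 6514 genes at 20 CPM or more in either group and outside the rule, 262 were at least 1.5-fold higher in DKO members with an interval that excluded equal levels (4.02%), and 166 were lower by the same measure (2.55%). The median log2 ratio of all 6514 was 0.01. A gene that reached 20 CPM in 1 group alone had to differ, and 132 of the 262 and 67 of the 166 were of this kind, so the counts and medians of gene lists given further on are descriptions of the genes compared. Ratios are given with 95% intervals from the binomial split of the UMIs.

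*Tac1* (chromosome 6, 7554879 to 7565834, plus strand), which encodes the precursor of substance P, had the highest ratio among genes at 50 CPM or more in either group, the level asked of the 15 highest and 15 lowest. Only genes whose interval excluded equal levels were ranked. *Tac1* stood at 44.3 CPM in control members (40.1 to 48.9) and 169 CPM in DKO members (162 to 176), a 3.81-fold difference and a log2 ratio of 1.93 (1.78 to 2.09). *Nell2* (chromosome 15, 95075230 to 95528559, minus strand), a secreted ligand of Robo receptors, was next at 45.7 and 149 CPM (log2 ratio 1.71, 1.55 to 1.87). *Synm*, the intermediate filament protein synemin, stood at 20.1 and 61.1 CPM (1.60), and *Cntnap2*, a neurexin-like adhesion protein, at 29.3 and 84.8 CPM (1.53). *Ly6h*, which binds nicotinic receptors, followed at 77.0 and 220.1 CPM (1.52), and *Id4*, an inhibitor of basic helix-loop-helix factors, at 21.3 and 60.9 CPM (1.51). The synaptotagmin *Syt4* stood at 123 and 313 CPM (1.35) and the homeodomain factor *Zfhx3* at 78.5 and 189 CPM (1.27). The rest of the 15 highest were *2900011O08Rik*, *C1qtnf4*, *Pop4*, *Sv2a*, *Igsf9b*, *Cd200* and *Scn9a*, with log2 ratios from 1.13 to 1.40. *Sv2a* encodes a synaptic vesicle protein and *Scn9a* a voltage-gated sodium channel.

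At the other end of the same genes, *Gm14226*, a predicted gene, had 54.2 CPM in control members (49.5 to 59.2) and 0 UMIs in DKO members. Against a floor of 3 UMIs over the group its log2 ratio was -7.87, with an upper interval limit of -7.57. *Six6* came next. The lectin *Lgals1* stood at 78.8 and 26.6 CPM (-1.57), the insulin-like growth factor binding protein *Igfbp5* at 74.96 and 25.9 CPM (-1.53), and the stress-responsive kinase *Plk3* at 177 and 62.0 CPM (-1.51). *Eif4ebp1*, a repressor of cap-dependent translation, *Chac1*, which degrades glutathione, and *Slc7a1*, a cationic amino acid transporter, are known targets of the transcription factor Atf4. They stood at 65.3 and 24.95 CPM (-1.39, -1.59 to -1.19), 52.6 and 21.0 CPM (-1.32, -1.54 to -1.11), and 96.2 and 46.4 CPM (-1.05, -1.20 to -0.90). *Atoh7* was in the same range, with 437 CPM (423 to 451) in control and 203 CPM (196 to 211) in DKO members (-1.10, -1.17 to -1.03). The Notch modifier *Mfng*, the zinc finger factor *Casz1*, the nuclear receptor *Nr2f6*, the growth arrest gene *Gadd45a*, *Gm266* and the homeobox gene *Prox1* completed the 15 lowest, with log2 ratios from -1.17 to -1.04.

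**Figure D2:**
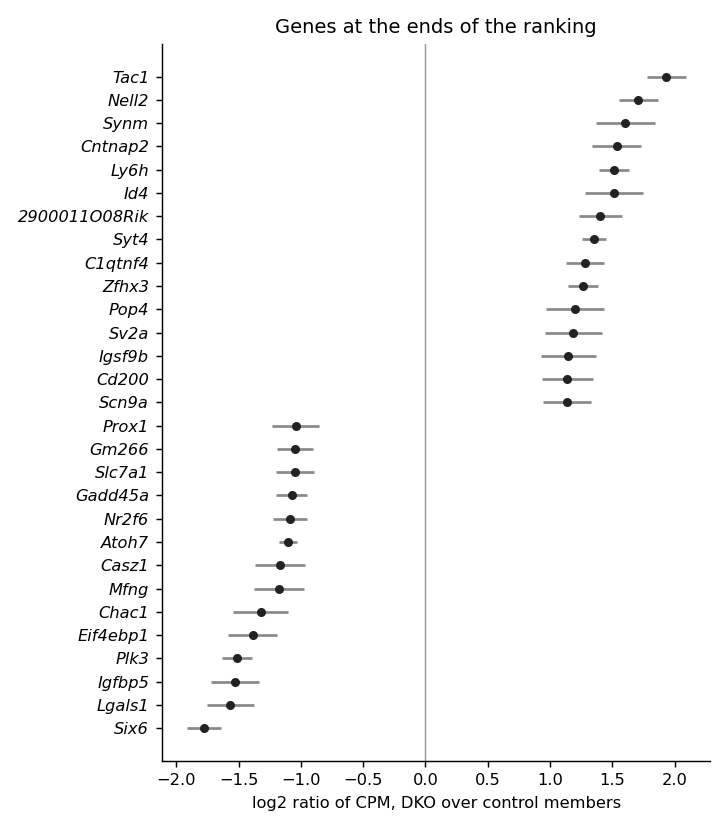
log2 ratio of CPM in DKO over control members (horizontal axis) for the 15 highest and, apart from *Gm14226*, the lowest genes among those at 50 CPM or more in either group, with bars for the 95% counting interval. *Tac1* stands at 1.93 and *Six6* at -1.78. No bar reaches 0 because only genes whose interval excluded equal levels were ranked.

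Promoters of genes at the ends of this ranking, and of *Sncg*, *Isl1* and *Pou4f2*, were searched for the motifs below. Sequence is shown for *Tac1*, *Chac1* and *Casz1* because only these genes held a match, so their rank did not select them among the genes searched. RefSeq promoters of GRCm38.p6, the mm10 build, covered 23 of 33 genes looked up, each with 250 bases before and 50 after the start. TAATTA, the palindromic core of many homeodomain sites, was found in 1 of their 27 promoters and in 5.29% of all 32851 promoters. TGATGCAA, the core of C/EBP and ATF composite sites, was searched on both strands and found in 2 of the 27 and in 0.895% of all. Of the other Atf4 targets named above, *Slc7a1* lacked it in each of its promoters and *Eif4ebp1* had no promoter entry. *Casz1* held it in only 1 of its promoters. Capitals mark the motif, read 5′ to 3′ along the gene's strand, so TTGCATCA is its reverse complement.
*Tac1* (chr6:7554949-7554978, plus strand, motif from 100 bases before the start): cgagggggcggcTAATTAaatattgagcag
*Chac1* (chr2:119351037-119351066, plus strand, motif from 193 bases before the start): ccttccctgccgTTGCATCActcctgccag
*Casz1* (chr4:148889338-148889367, plus strand, motif from 3 bases after the start): gtgttactcctcTTGCATCAttgataagct
These matches describe the letters of the windows and are not evidence of binding.

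The ranking separated into genes whose difference held in each band of the axon gene rate and genes whose difference depended on the band. Of the 15 highest genes, 14 were above a ratio of 1 in all 3 bands and 12 with intervals that excluded it. Of the 15 lowest, 14 were below 1 in all bands and 11 with such intervals, *Gm14226* included. For all called genes the measure was stricter, with the 20 CPM, 1.5-fold and interval limits applied within a single band. Of the 262 higher genes 163 passed in band 1, 166 in band 2 and 67 in band 3, and of the 166 lower genes 97, 91 and 48. Band 3 held only 146 control members, and these counts cannot be set against those of the 15 highest and 15 lowest genes. *Nell2* was higher in each band, with 15.4 and 59.4 CPM in band 1 and 53.3 and 158 CPM in band 2. In band 3 it had 114 and 200.1 CPM (log2 ratios 1.95, 1.56 and 0.82 over the bands). *Zfhx3* was higher by 0.93, 1.53 and 0.87, and *Pop4*, a subunit of RNase P, by 0.95, 1.35 and 1.45. *Ly6h*, in contrast, had log2 ratios of 3.03, 1.45 and 0.25, since its control level climbed from 15.2 to 217 CPM across the bands while the DKO level was already 124 CPM in band 1 and 258 CPM in band 3.

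*Tac1* reversed. In band 1 it stood at 20.1 CPM in control and 391 CPM in DKO members, a log2 ratio of 4.28 (3.95 to 4.62). In band 2 the levels were 56.1 and 125 CPM (1.16, 0.92 to 1.40), and in band 3 they were 84.3 and 60.5 CPM (-0.48, -0.79 to -0.16). The control level was highest in the band with the most axon gene UMIs and the DKO level in the band with the fewest. *Uncx*, a homeobox gene that the study names among markers of the DKO-specific neurons and thus chose on these libraries, had a similar course, with 32.3 and 162 CPM in band 1, 52.7 and 64.6 CPM in band 2, and 42.8 and 38.9 CPM in band 3. Cells over the *Eomes*, *Lhx9*, *Tbr1* and *Rspo3* limit, which were not members, held 320 CPM of *Tac1* (269.5 to 376) and 178 CPM of *Uncx*. Among DKO members thinned to 3000 UMIs, 24.5% of those with *Tac1* also had *Uncx* (19.9 to 29.7%), against 15.4% of those without, where control members gave 6.67% (2.49 to 13.9%) and 10.5%. *Tac1* was seen in 14.2% of DKO members with *Pou4f1* and 22.1% of those without, and in 12.3% and 8.19% of control members.

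**Figure D3:**
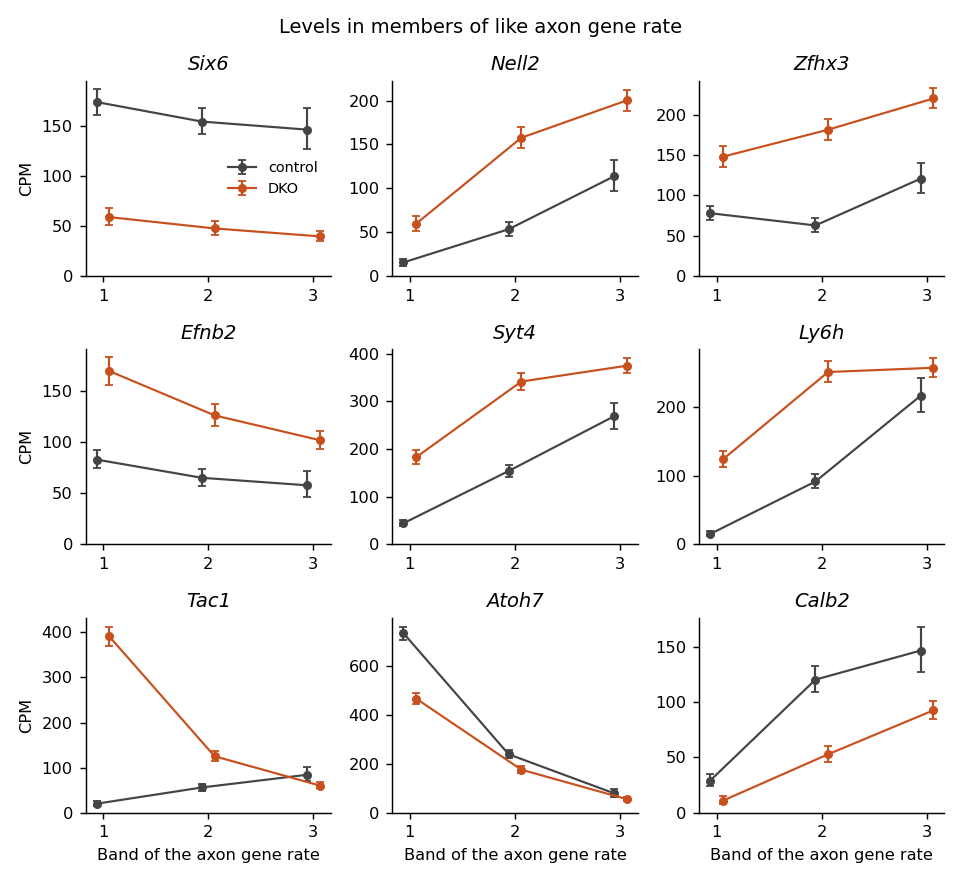
CPM (vertical axes, each from 0) of 9 genes in control and DKO members by band of the axon gene rate (horizontal axes, 1 lowest, 3 highest), with 95% Poisson intervals. *Six6* and *Calb2* stay lower and *Nell2*, *Zfhx3* and *Efnb2* higher in DKO in each band, the *Ly6h* levels approach each other, and the *Tac1* levels cross, from 20.1 against 391 CPM in band 1 to 84.3 against 60.5 CPM in band 3.

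Of 22 genes of neurofilaments, tubulins and microtubules outside the rule, 20 reached 20 CPM, 4 were at least 1.5-fold higher and 0 lower (median log2 ratio 0.20), where 4.02% of all genes compared were higher. These 4, all above 1 in all 3 bands with their intervals, were the β-tubulin *Tubb2a* (557 and 907 CPM, 0.70), *Mapt*, which encodes tau (453 and 782 CPM, 0.79), *Stmn4* (223 and 393 CPM, 0.82), and the kinesin *Kif21a* (152 and 239 CPM, 0.66). *Map1b*, a microtubule protein of growing axons, went the other way, at 6575 and 4865 CPM (-0.43), with negative ratios in each band (-0.36, -0.55 and -0.22). Growth cone genes gave 1 higher and 0 lower of 18, with a median of 0.30 and 16 of 18 above 0. The higher gene was *Fez1*, a kinesin adaptor (101 and 167 CPM, 0.72), followed short of the limit by *Islr2* (0.54) and *Uchl1* (0.53).

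Genes of transmitter release and glutamate signalling, the longest list, held the largest number of higher genes, 10 of the 24 that reached the filter. Over all genes compared, 4.02% were higher. In the list 1 gene was lower and the median was 0.53. Of the 10, 3 reached 20 CPM in DKO members alone, *Gria4* among them. All 10 were above 1 in all 3 bands, and 5 with their intervals. *Sv2a* (23.5 and 53.4 CPM, 1.19), *Syt4*, *Snap25* (134 and 230.3 CPM, 0.78) and *Rab3c* (37.9 and 62.8 CPM, 0.73) act in vesicle release. *Gria2* (75.2 and 129 CPM, 0.78) and *Gria4* (13.52 and 28.9 CPM, 1.10) encode AMPA receptor subunits, and *Gria4* had ratios of 1.15, 0.69 and 0.77 over the bands. *Chrna3*, a nicotinic receptor subunit, was the lower gene (176 and 94.3 CPM, -0.90), with -1.11 in band 1 and -0.08 in band 3. *Slc17a6*, the vesicular glutamate transporter that marks glutamatergic neurons, had 64.8 and 82.4 CPM (0.35), with 1.22 in band 1 and -0.42 (-0.66 to -0.18) in band 3. Ion channel genes gave 3 higher of 10 (*Scn2a*, 0.95; *Scn3b*, 0.68; *Kcnc1*, 0.60) and 0 lower, with 0 of the 3 holding in each band by its interval, and *Scn2a* and *Kcnc1* reached 20 CPM in DKO alone.

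**Figure D4:**
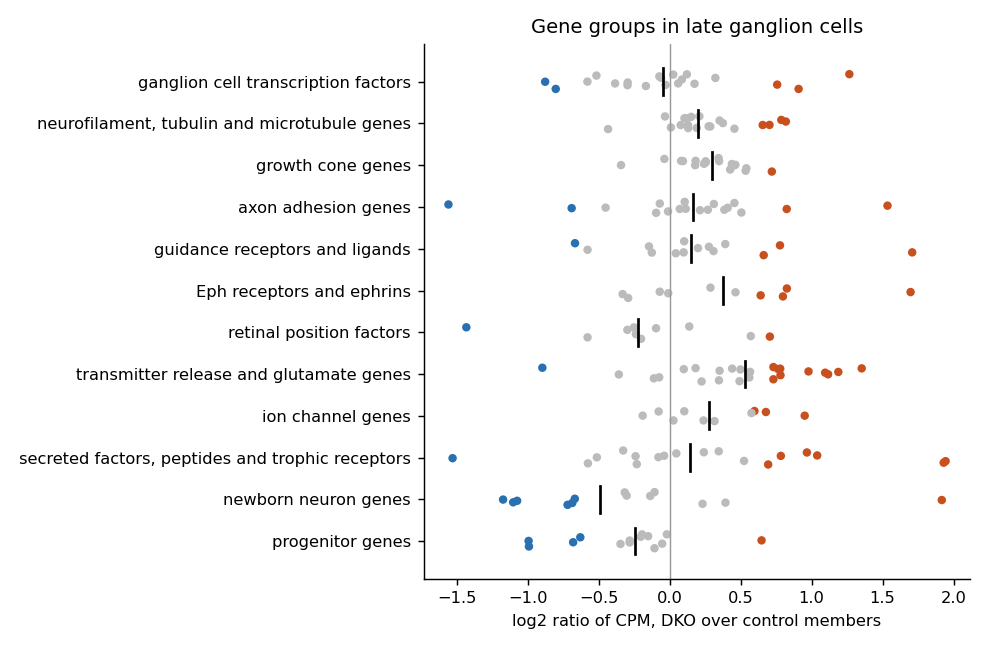
log2 ratio of CPM in DKO over control members (horizontal axis) for each gene of 12 groups that reached 20 CPM in either group. Points are orange for genes at least 1.5-fold higher with an interval excluding equal levels, blue for lower, grey for the others, black ticks mark group medians (0.53 for transmitter genes, -0.49 for newborn neuron genes), and *Gm14226*, at 0 UMIs in DKO members, is not drawn.

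Guidance and adhesion genes differed in both directions, where 4.02% of all genes compared were higher and 2.55% lower. Of 14 guidance receptors and ligands, 3 were higher (*Nell2*; *Robo1*, 23.7 and 40.6 CPM, 0.78; *Cxcr4*, 14.7 and 23.3 CPM, 0.66) and 1 lower (*Dcc*, the netrin receptor, 78.5 and 49.4 CPM, -0.67), with a median of 0.15. *Cxcr4* reached 20 CPM in DKO alone. *Nell2* alone kept its direction in each band, and *Dcc* had 0.01 in band 2. Of 18 adhesion genes, 2 were higher (*Cntnap2* and *Tenm1*) and 2 lower. The lower 2 were *Cntn2*, the axonal glycoprotein TAG-1, at 383 and 237 CPM (-0.69, -0.76 to -0.62), and *Alcam*, which guides ganglion cell axons, at 21.6 and 7.32 CPM (-1.56, -1.93 to -1.20). *Cntn2* was lower in every band (-1.15, -1.10 and -0.37) and so was *Alcam* (-1.20, -0.88 and -1.90). *Tenm1* reached 20 CPM in DKO alone and *Alcam* in control alone.

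Against 4.02% of all genes compared, 4 of 10 Eph receptors and ephrins in the filter were higher and 0 lower (median 0.38). *Ephb1*, the receptor that repels ventral axons at the optic chiasm, stood at 9.05 and 29.3 CPM (1.70, 1.35 to 2.06), and the band ratios were 2.12, 1.90 and 0.58. Its ligand *Efnb2*, which is a dorsal gene in the retina, stood at 72.1 and 128 CPM (0.83), with 83.0 and 170 CPM in band 1, 65.2 and 126 CPM in band 2, and 57.8 and 102 CPM in band 3. *Efnb1* (0.80) and *Epha6* (0.64) were the other two. *Ephb1*, *Efnb1* and *Epha6* reached 20 CPM in DKO alone, and of the 6 genes of the list at 20 CPM in both groups *Efnb2* was the 1 that was higher. *Zic2*, which drives *Ephb1* in ipsilateral ganglion cells, was at 50.05 and 33.5 CPM (-0.58). Of 10 retinal position factors in the filter, 1 was higher and 1 lower, both at 20 CPM in 1 group alone, with a median of -0.22. *Foxd1*, of the temporal retina, was the lower gene (25.6 and 9.47 CPM, -1.43, -1.76 to -1.11). The dorsal factor *Tbx5* had 43.6 and 35.4 CPM (-0.30) and the ventral factor *Vax2* 49.2 and 46.0 CPM (-0.10). In summed cells, a higher level per cell and a larger share of cells from a given retinal position cannot be told apart.

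Ganglion cell transcription factors showed no common direction. Of 20 that reached the filter out of 27, 3 were higher, 2 lower, and the median was -0.05. Over all genes compared, 4.02% were higher and 2.55% lower. The higher factors were *Zfhx3* and the Iroquois genes *Irx3* (65.1 and 122 CPM, 0.91) and *Irx5* (109 and 183 CPM, 0.76). The Iroquois ratios were near 0 in band 3 (0.20 and 0.01). *Dlx1* (88.7 and 50.8 CPM, -0.80) and *Dlx2* (46.1 and 25.1 CPM, -0.88), which act in ganglion and amacrine cell genesis, were the lower factors. *Ebf1* (1015 and 972 CPM), *Sox11* (2538 and 2487 CPM) and *Sox4* (1738 and 1769 CPM), which act broadly in young neurons, had log2 ratios of -0.06, -0.03 and 0.03.

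Against 4.02% of all genes compared, 6 of 18 secreted factors, peptides and trophic receptors were higher and 1, *Igfbp5*, lower (median 0.14). Besides *Tac1*, they were *Mstn*, encoding myostatin (8.27 and 31.8 CPM, 1.94), *Fgf12* (1.04), the neurosecretory protein *Vgf* (14.9 and 29.0 CPM, 0.97), and *Ret* (42.6 and 73.2 CPM, 0.78) and *Gfra2* (0.69), the receptors of GDNF family ligands. *Mstn*, *Vgf* and *Gfra2* reached 20 CPM in DKO alone, and of the 14 genes of the list at 20 CPM in both groups 3 were higher. *Mstn* (2.25, 1.66 and 1.06) and *Vgf* (0.89, 0.78 and 0.98) were higher in each band, while *Ret* had 1.60 in band 1 and -0.09 in band 3. The calcium-binding protein *Calb2* was lower, 83.3 CPM (77.5 to 89.5) against 58.4 CPM (54.3 to 62.7), with band levels of 29.1 and 10.9, 120.2 and 52.8, and 146 and 92.4 CPM. The pooled ratio of -0.51 was thus nearer to 0 than the band ratios of -1.41, -1.19 and -0.66.

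Of 14 newborn neuron genes, 7 were lower, where 2.55% of all genes compared were lower, 1 was higher, and the median was -0.49 with *Gm14226* at its bound. Of the 7, 6 were below 1 in all 3 bands and 3 with their intervals. *Gm14226* reached 20 CPM in control alone and *Neurog2* in DKO alone. *Hes6* (127 and 76.8 CPM, -0.72), *Btg2* (156 and 96.9 CPM, -0.69) and *Cbfa2t2* (-0.67) joined *Atoh7*, *Gadd45a*, *Mfng* and *Gm14226*. For *Atoh7* the band ratios were -0.65, -0.44 and -0.51, each smaller in size than the pooled -1.10. *Neurog2*, a proneural factor of progenitors, was the higher gene (7.71 and 29.1 CPM, 1.92), at 2.68, 1.85 and 1.46 over the bands. Of 14 progenitor genes, 4 were lower, among them *Sfrp2* (-0.99), *Notch1* (-0.68) and *Mki67* (-0.63), with 0 of the 4 lower in all 3 bands and 2 of them at 20 CPM in control alone, and *Lhx2* was higher (0.65). Both amacrine and horizontal cell genes in the filter were lower (*Prox1* and *Gad2*, -1.10), and 0 of 1 photoreceptor gene passed the limit. Of 10 early response and stress genes, 2 were lower (*Atf3*, -1.03, at 20 CPM in control alone, and *Egr1*, -0.61) and 0 higher. All 6 hemoglobin genes and all 3 crystallin genes in the filter were lower, beside the red blood cell and lens sums given above.

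*Isl1* or *Pou4f2* cells under the axon gene limit are the nearest comparison. Between genotypes these 624 control and 437 DKO cells had 615 genes higher (9.12%) and 344 lower (5.1%) of 6743, a larger share than in members. *Efnb2* was higher there as well (96.5 and 203 CPM, 1.07), and *Neurog2* too (34.4 and 96.5 CPM, 1.49). The 12 genes that the study chose on these libraries as marking DKO-specific neurons, which is no independent evidence of their direction, summed to 352 and 1220.5 CPM under the limit and to 229 and 543 CPM in members.

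Members against cells under the limit is the contrast the rule made, so it is given as a description. In control, 1112 genes of 6843 were higher in members (16.3%) and 993 lower (14.5%), and in DKO 854 (12.5%) and 814 (11.9%). *Calb2* had 1 UMI in control cells under the limit and 83.3 CPM in members, a log2 ratio of 8.62 (6.14 to 13.93). *Sst*, the peptide somatostatin, had 1.90 and 270 CPM (7.15, 6.22 to 8.28), and the phosphatase subunit *Ppp2r2b* 0.845 and 132 CPM (7.29). *Slc17a6* had 0 UMIs under the limit in control, a log2 ratio of 6.68 against the floor with a lower interval limit of 6.37. In DKO, by contrast, *Slc17a6* stood at 24.1 CPM under the limit and 82.4 CPM in members (1.77). The semaphorin receptor *Nrp1* (6.55 in control and 2.53 in DKO), *Akap6* (6.28 and 1.93), *Myt1l* (5.81 and 2.50) and *Ly6h* (5.70 and 1.89) also had smaller ratios in DKO, with DKO levels under the limit of 23.4 to 59.2 CPM against 1.27 to 2.11 CPM in control. The lowest genes in control members were *Sstr2*, a somatostatin receptor (92.7 CPM under the limit and 7.37 CPM in members, -3.65), *Epha3* (-3.54), the Notch effector *Hes5* (-3.49), and genes of cell division such as *Nusap1*, *Ccnb1*, *Ube2c*, *Hmmr*, *Cdk1* and *Rrm2* (-2.88 to -2.61).

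Members also varied among themselves. With each cell thinned to 3000 UMIs, the Fano factor, which is the variance of a gene's UMIs over its mean, had a median of 1.04 in both libraries over 3162 genes. *Crabp1*, which binds retinoic acid, exceeded all others at 28.6 in control and 27.5 in DKO. *Sst* followed after *Malat1* among genes outside the axon group, at 5.51 and 6.45, then *Aldh1a1*, which makes retinoic acid, at 4.35 and 5.17. *Map1b*, *Gap43*, *Tuba1a*, *Ccnd1*, *Atoh7* and the 3 axon genes of the rule completed the 12.

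The share of members with a UMI showed how these genes were spread. At 3000 UMIs, which left out 17 control and 53 DKO members, *Crabp1* was seen in 46.9% of control members (43.7 to 50.2%) and 56.7% of DKO members (54.2 to 59.2%). Red blood cells of the same libraries, which lack the gene, gave 3.68% and 6.34% at the same depth. Without thinning the member shares were 58.3% and 66.5%. *Sst* was seen in 21.0% of control and 18.6% of DKO members, with overlapping intervals (18.4 to 23.7% and 16.7 to 20.6%), while its level was 270 CPM in control and 188 CPM in DKO and its band ratios were -0.68, -1.51 and -0.81. *Calb2* was seen in 14.9% (12.7 to 17.3%) and 10.5% (9.06 to 12.1%). *Gal*, which encodes galanin, was seen in 23.0% and 33.2%, at 171 and 245 CPM. Its band ratios of -0.70, -0.01 and -0.02 gave no higher DKO level in any band. *Nell2* was seen in 9.81% of control and 30.2% of DKO members, *Tac1* in 9.49% and 19.7%, *Zfhx3* in 17.8% and 33.2%, *Irx3* in 12.03% and 23.6%, and *Efnb2* in 15.4% and 28.9%. *Six6* was seen in 35.7% of control members (32.6 to 38.8%) and 11.6% of DKO members (10.1 to 13.3%), with 5.27% and 2.01% in red blood cells. *Pou4f1* had near-equal shares of 31.8% and 30.8%.

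**Figure D5:**
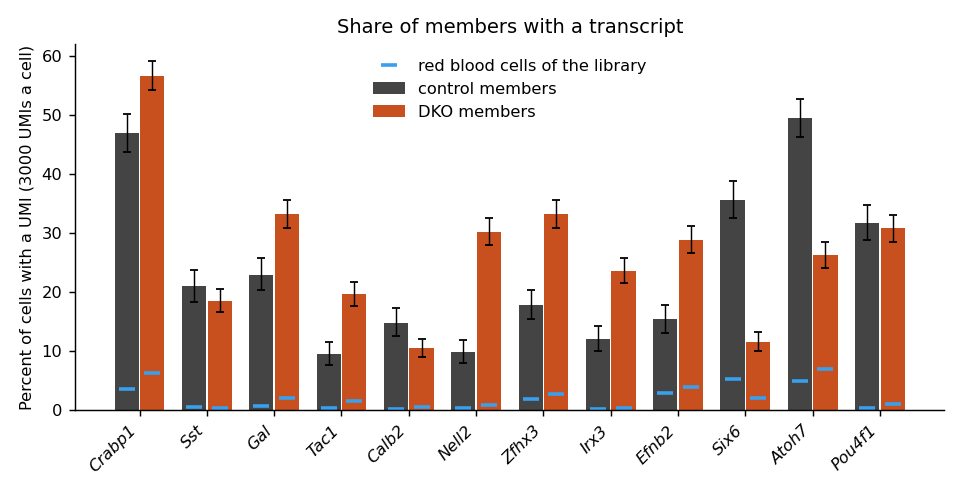
Percent of members with at least 1 UMI of 12 genes after thinning each cell to 3000 UMIs (vertical axis from 0), in control and DKO, with 95% exact binomial intervals and blue dashes for red blood cells of the same library. *Nell2* (9.81 and 30.2%) and *Six6* (35.7 and 11.6%) differ most by ratio, and *Pou4f1* (31.8 and 30.8%) and *Sst* (21.0 and 18.6%) overlap in their intervals.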

How the data were processed

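Single-cell RNA-seq counts were taken as the authors deposited them, 1 matrix of whole UMI counts per gene and cell for each of the 2 libraries, not normalized. Reads had been mapped to mm10 with Cell Ranger 3.1.0, per the submitters' processing notes. The matrices held 10315 control and 12672 DKO barcodes. The filter stated in the study's methods left 9822 and 12146, the numbers given there, and the further limits on mitochondrial, hemoglobin and crystallin transcripts left 7331 and 10127. The members, the gene lists and the comparisons were chosen with earlier results of these data known.

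UMIs were summed over the cells of a group. Levels are CPM (per 1000000 UMIs), from 8951903 UMIs in control members and 12985810 in DKO members. Intervals are exact Poisson (levels), exact binomial (shares) and from the binomial split (ratios), at 95%, and cover counting error only. A ratio against 0 UMIs was set against 3 UMIs. Genes at 20 CPM or more in either group were compared, rule genes apart, and called at 1.5-fold with an interval excluding 1. With 1 library per genotype no test was made. Named genes were the 15 highest and 15 lowest DKO over control ratios at 50 CPM or more with an interval excluding 1, the 12 highest and 12 lowest members over under-limit ratios in control, the 12 highest Fano factors, and listed genes, with hemoglobin, crystallin, mitochondrial, *Xist* and Y-linked genes left out of the rankings. *Pou4f2*-positive members and band 3 alone were added after the data were seen. Scrublet, run through scanpy 1.11.5, scored doublets at a threshold of 0.219, the lower of the 2 automatic ones, calling 327 of 9822 control and 355 of 12146 DKO cells. They were kept, and left out in an alternative. Gene positions were taken by Ensembl ID from the GENCODE annotation of the same build, and promoter sequences from RefSeq. The ratio step was tested on simulated counts with known changes. The code ran under Python 3.11.15 with scipy 1.17.1, numpy 2.4.6 and, for tables, pandas 2.3.3. The paper's other assays were not analysed here. Some genes of the lists are counted but not reported here by name.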

Additional observations from a re-analysis of the deposited data

Results flagged for a closer look

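*Cntn2* differed in opposite directions in the 2 sets of cells, with a log2 ratio of DKO over control of -0.69 (-0.76 to -0.62) in members and 0.68 (0.31 to 1.04) in *Isl1* or *Pou4f2* cells under the axon gene limit, where levels were 28.3 and 45.2 CPM. The same held for *Crybb3* (-1.55 and 0.62) and *Hbb-bs* (-1.64 and 2.08), a lens and a red blood cell gene. None of these differences between the sets of cells was tested. Outside the members, 35 DKO cells and 0 control cells met the *Isl1*, *Pou4f2* and axon gene limits while holding at least 3 UMIs of *Eomes*, *Lhx9*, *Tbr1* and *Rspo3*. The 35 made up 0.346% of kept DKO cells (0.241 to 0.480%), and 37.1% of them were called doublets. A count of 0 in control allows up to 0.0409%, a one-sided limit taken as 3 over the number of kept cells.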

How the results depend on the processing

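No paired analysis was possible because only 1 library stood for either genotype, and no replicate could be left out. The control and DKO shares of cells that met the rule were 14.4% and 17.2% with an axon gene limit of 2 UMIs, 11.9% and 15.4% with a limit of 8, and 12.4% and 14.1% with 4 UMIs of *Isl1* and *Pou4f2*. The control share was 11.8% when cells were thinned to 4000 UMIs before the rule and 12.4% without doublets, the DKO share 15.5% with 0 UMIs of the *Eomes* group allowed and 17.0% at 1000 genes or more, and the shares were 9.92% and 9.80% for members with a *Pou4f2* UMI, which ended the higher DKO share. The numbers of genes higher and lower in DKO than control members were 678 and 395 with a filter of 5 CPM, 98 and 73 with 50 CPM, and 70 and 39 with a fold of 2. With the 3 bands weighted equally 94 were lower, and the cause was not tested. Members over under-limit cells gave 1777 higher and 1707 lower in control and 1306 and 1532 in DKO at 5 CPM, 620 and 468, 481 and 371 at 50 CPM, and 604 and 417, 412 and 330 at a fold of 2. The counts at other filters and folds follow from how many genes pass them. The filters of 5 and 50 CPM and the fold of 2 leave the ratio of a gene unchanged, so they could not turn its direction. Of 93 called genes that were listed or ranked, 83 kept their direction under all 17 alternatives, which include these settings. The other 10 turned only in band 3 alone, where *Cxcr4* had -0.071, *Dlx2* 0.012, *Egr1* 0.53, *Mfng* 0.56, *Ret* -0.088, *Robo1* -0.14, *Scn3b* -0.28, *Sfrp2* 0.10, *Tac1* -0.48 and *Uncx* -0.14, and the cause was not tested. Of the 93, 69 moved beyond their counting interval in band 3 alone, besides the 10 that turned, and 61 with the bands weighted equally. Of the 12 most variable genes, 11 were shared when cells were thinned to 2000 UMIs and 9 without thinning.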
